A study of Mus musculus with 4 samples.

Results

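DNA methylation of haematopoietic stem and progenitor cells (HSPCs) was compared between Sca1-BCL6Δ and wild-type mice in fixed tiles of 1 kb along the 19 mouse autosomes (assembly mm9). Within each library the methylated and the total read counts of a tile were summed over its CpGs, the C-G base pairs at which mammalian DNA is methylated. Only CpGs with reads in both libraries and with under 50 reads in each entered the sums, and a tile was kept at 10 or more summed counts in each library. This left 101610 of the 278051 tiles that held such a CpG, and 421973 tiles held a CpG covered in any library of the study. A read that spans several CpGs is counted once at each of them, so summed counts exceed the number of reads.

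The study used reduced representation bisulfite sequencing, in which DNA is cut with MspI and TaqI, unmethylated cytosines are converted with bisulfite and fragment ends are sequenced. There were 4 libraries, 1 for each pairing of genotype and cell type. HSPCs were Sca1+Lin- cells sorted from bone marrow, and the B cells that served as the reference below were B220+ cells sorted from peripheral blood. All mice were on a CBAxC57BL/6J background. The Sca1-BCL6Δ mice were designed to express a Bcl6 cDNA from the Sca1 promoter in HSPCs and to lose it through Cre recombinase made from the Cd79a locus, which is a B lineage gene. Wild-type mice carried neither. Every library was made from DNA of 6 to 9 mice, without a replicate library for any condition, and the founder line behind each pool is not named in the labels. No expression was measured, so neither the transgene nor the marker genes of the sorted cells could be checked. The comparison asks what differed in the methylation of HSPCs, where the transgene was designed to be on.

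Bcl6 is a transcriptional repressor best known from germinal centre B cells, where it holds back differentiation and responses to DNA damage. CpG-rich promoters are mostly unmethylated in mammalian cells, whereas scattered CpGs between and within genes are mostly methylated. DNMT1 copies methylation to the new strand at replication, DNMT3A and DNMT3B add it to unmethylated DNA, and TET enzymes oxidise it on the way to its removal.

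The wild-type HSPC library held 9004756 summed counts over 1198821 autosomal CpGs and the Sca1-BCL6Δ HSPC library 5445439 over 990678. Both libraries had reads at 936263 CpGs, of which 617 were left out for their depth. The kept tiles held 656409 CpGs, with a median of 4 CpGs per tile and median summed counts of 20 in Sca1-BCL6Δ against 29 in wild-type HSPCs. No step that removes PCR duplicates was recorded, so reads need not be separate molecules, and intervals below cover counting error only. Tiles just inside the limit, with 10 counts in the thinner library, had a median difference of 12.5 percentage points (9665 tiles). Those just outside it, with 9 counts, had 12.1 (9080 tiles).

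Wild-type HSPCs stood apart from the other 3 libraries in how many tiles were partly methylated. Over the 91806 tiles with 10 or more counts in every library, 45.2% of tiles in wild-type HSPCs had a level of 20 to under 80%, against 19.5% in Sca1-BCL6Δ HSPCs. The B cell libraries had 16.3% (wild-type) and 16.04% (Sca1-BCL6Δ). Tiles of 80% or more made up 33.0% in wild-type and 57.6% in Sca1-BCL6Δ HSPCs, and 60.1% and 59.8% in B cells (wild-type first). Tiles under 20% were of like number in the 4 libraries, from 21.8% in wild-type HSPCs to 24.1% in Sca1-BCL6Δ B cells. By these shares the wild-type HSPC library was the odd one of the 4, and the Sca1-BCL6Δ HSPC library lay close to both B cell libraries. Genotype, library and pool of mice cannot be told apart with 1 library per condition.

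**Figure D1:**
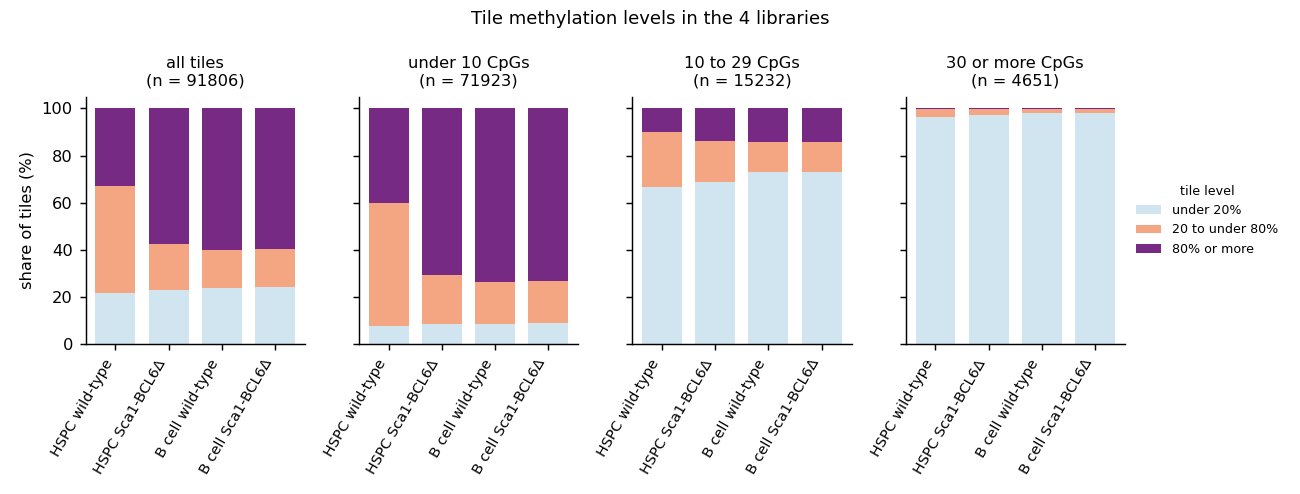
Share of tiles (%, y axis) with a methylation level under 20%, of 20 to under 80% and of 80% or more in each library, for all 91806 tiles with 10 or more counts in every library and by the number of CpGs covered per tile. The middle share is 45.2% in wild-type HSPCs and 16.04 to 19.5% in the other libraries.

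The excess of partly methylated tiles was largest where covered CpGs were sparse. Of the kept tiles 81568 held under 10 covered CpGs, 15391 held 10 to 29 and 4651 held 30 or more. In sparse tiles covered in every library, the share of 20 to under 80% was 52.5% in wild-type and 21.1% in Sca1-BCL6Δ HSPCs. Tiles with 30 or more CpGs were almost all unmethylated, and 96.2% of them in wild-type and 97.3% in Sca1-BCL6Δ HSPCs had a level under 20%.

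Tiles were then classed by their density and by the pooled level of the B cell libraries, which are not part of the HSPC comparison. With 1 library per condition the class differences carry no test, and their spread is given as the SD of the class median over the 19 autosomes. In sparse tiles with 80 to under 95% methylation in B cells (23956 tiles), the median level was 91.3% in Sca1-BCL6Δ against 75% in wild-type HSPCs. The median difference was 14.6 percentage points (SD 0.804 over 19 autosomes, all 19 above 0). In sparse tiles of 95 to 100% in B cells (36752 tiles) the levels were 97.9% and 83.3%, and the median difference was 11.7 (SD 0.569, all 19 above 0). At 20 to under 80% (14149 tiles) it was 5.73 (SD 1.27, all 19 above 0). Wild-type HSPCs thus had the lower class median in all 3 classes, whereas single tiles varied: Sca1-BCL6Δ was the lower library at 15.2% of tiles at 80 to under 95%, 12.1% at 95 to 100% and 38.4% at 20 to under 80%.

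In tiles with 10 to 29 CpGs the difference had the same sign and was smaller. It was 10.7 (SD 3.25, 772 tiles) at 80 to under 95% and 8.33 (SD 0.907, 1441 tiles) at 95 to 100%, with all 19 autosomes above 0 in both. At 20 to under 80% it was 1.64 (SD 1.78, 1792 tiles), with 15 autosomes above 0 and 3 below. Of the densest tiles only 6 and 12 fell in the methylated classes, with medians of 12.6 and 5.97.

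Unmethylated tiles showed the opposite sign at every density, and the differences were small. In the 2499 sparse tiles under 10% in B cells the median difference, Sca1-BCL6Δ minus wild-type, was -2.10 (SD 1.43, 18 autosomes below 0). Tiles with 10 to 29 CpGs had -1.96 (SD 0.344, 6714 tiles) and tiles with 30 or more -1.77 (SD 0.341, 3917 tiles), with all 19 autosomes below 0. At 10 to under 20% in B cells the medians were -2.78, -2.07 and -2.13, in order of density. Both ends of the scale therefore lay nearer to the middle in wild-type than in Sca1-BCL6Δ HSPCs.

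The B cell libraries, treated the same way with classes set by the HSPC libraries, gave a measure of how far 2 pools differ. Their 3 sparse classes of 20% or more had a median difference of 0.00 on all 19 autosomes. Tiles of equal level add to this: at 95 to 100%, 36.8% of tiles were higher and 27.9% lower. The mean differences were -0.262, 0.250 and 0.235, in order of level. B cell tiles of 10 to 29 CpGs at 20 to under 80% had a median of -1.58, with 18 autosomes below 0. The unmethylated B cell classes had medians of -2.32 to -0.65, so Sca1-BCL6Δ was the lower library there too. The small negative difference at unmethylated tiles was thus present in both cell types, whereas the large positive one at methylated tiles was present in HSPCs; the difference between cell types was not tested by class.

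**Figure D2:**
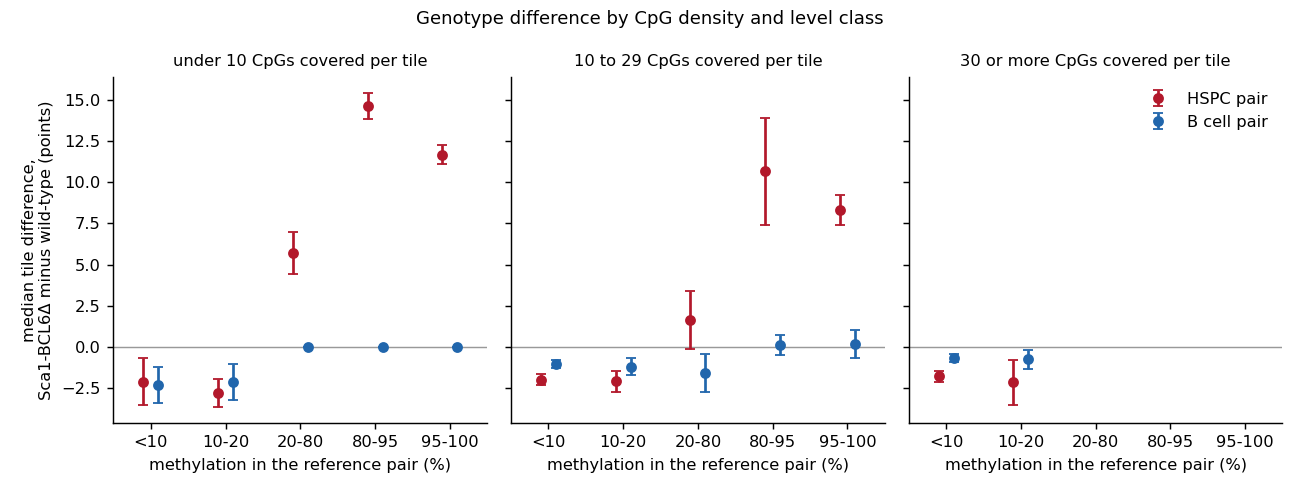
Median difference of tile levels, Sca1-BCL6Δ minus wild-type in percentage points (y axis), by the level in the other pair of libraries (x axis, %) and by covered CpGs per tile (panels), for classes of 100 or more tiles. Points are class medians and bars the SD over the 19 autosomes; the HSPC pair reaches 14.6 in sparse methylated tiles, where the B cell pair is at 0.

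Depth moved with the size of the difference. In sparse tiles of 95 to 100% the median difference was 12.3 at 10 to 19 wild-type counts, 11.8 at 20 to 49 and 10 at 50 or more. Its sign was the same in each of these depth ranges. The negative median difference of unmethylated tiles depended on depth more. In tiles of 10 to 29 CpGs under 10% in B cells it was 0 at 10 to 19 counts (45 tiles), -0.04 at 20 to 49 (414 tiles) and -2.04 at 50 or more (6255 tiles). In sparse tiles under 10% it was -0.18, -2.74 and -1.82 in the same ranges, so the median was near 0 in the shallowest tiles of both densities. Mean levels did not follow it. In sparse tiles they were 14.0% in Sca1-BCL6Δ against 17.4% in wild-type HSPCs at 10 to 19 counts. They were 12.2% against 15.1% at 20 to 49 and 10.1% against 12.1% at 50 or more. In tiles of 10 to 29 CpGs the means were 9.11% against 14.8%, 12.1% against 11.7% and 8.66% against 10.5% in these ranges.

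The difference was spread along the chromosomes. In 493 windows of 5 Mb with 20 or more tiles of at least 80% in B cells, the window median ranged from 7.14 to 24.4 points around 13.0, and it was above 0 in all 493. The B cell values, over tiles of at least 80% in the HSPC libraries, ranged from -1.91 to 3.22 over 496 windows, around 0.00. The lowest HSPC window was thus above the highest B cell window. Windows with more covered CpGs, which lie in CpG-rich and as a rule gene-rich stretches, had somewhat smaller differences. The mean difference was 14.9 in the 124 windows with the fewest covered CpGs and 13.3 in the 123 windows with the most. Across the 493 windows Pearson's r with the log10 number of covered CpGs was -0.306 and Spearman's rho -0.324; the points share both libraries, and depth per tile rose with the number of CpGs, from medians of 22 to 26 wild-type counts.

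**Figure D3:**
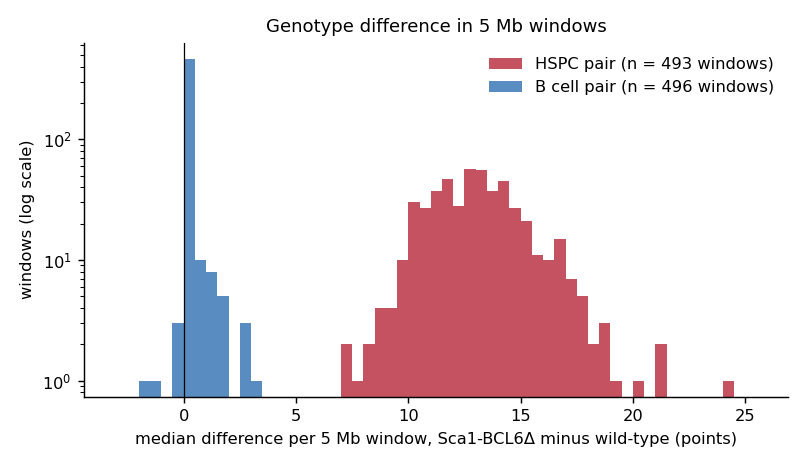
Number of 5 Mb windows (y axis, log scale) by the median difference of their methylated tiles, Sca1-BCL6Δ minus wild-type (x axis, percentage points). The 493 HSPC windows span 7.14 to 24.4 and the 496 B cell windows -1.91 to 3.22.

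Single reads with 3 or more CpGs were sorted into fully methylated, mixed and fully unmethylated ones, by the level of their tile in B cells. In tiles of 95 to 100%, fully unmethylated reads made up 6.39% of 108607 such reads in wild-type HSPCs and 1.19% of 75854 in Sca1-BCL6Δ HSPCs, against 0.674% and 0.463% in B cells (wild-type first). Mixed reads made up 18.4% and 9.33% in wild-type and Sca1-BCL6Δ HSPCs, and 6.18% and 6.35% in B cells. Both kinds of read were thus more frequent in wild-type than in Sca1-BCL6Δ HSPCs. The B cell libraries set the class of the tiles, so their low shares follow in part from it. Tiles of 20 to under 80% showed smaller differences, with 28.9% and 28.6% mixed and 50.4% and 47.4% fully unmethylated reads in wild-type and Sca1-BCL6Δ HSPCs. In tiles under 10% in B cells, mixed reads made up 15.5% in wild-type and 9.62% in Sca1-BCL6Δ HSPCs, fully unmethylated reads 79.0% and 85.1%, and fully methylated reads 5.51% and 5.27%. Wild-type HSPCs thus had more mixed and fewer fully unmethylated reads there, and wild-type B cells, with 14.9% mixed reads against 10.7% in Sca1-BCL6Δ B cells, differed in the same direction.

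Tiles that departed from this library-wide difference were sought with an exact conditional test on read counts. Its null odds ratio was that of the tile's own class (4.20 in sparse tiles of 95 to 100%, 2.83 at 80 to under 95%, 0.745 to 1.27 in the larger classes under 80%). Of CpGs within 50 bp of one another only the deepest was tested, since they often lie on the same reads. A tile was called at a Benjamini-Hochberg adjusted p under 0.05 and a difference, less its class median, of at least 20 points. The test compares the reads of 2 libraries and carries no variation between animals.

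Of 101610 tiles, 11 were called higher (0.0108%) and 160 lower (0.157%) in Sca1-BCL6Δ HSPCs. An adjusted p under 0.05 was reached by 174 tiles and an unadjusted p under 0.05 by 5099 (5.02%), against 2.78% in the B cell pair. Over classes of 100 or more tiles, the SD of HSPC tile differences was 1.13 to 1.29 times that from counting. In the B cell pair it was 0.881 to 1.23 times. HSPC tiles thus varied beyond counting error, which the test does not include. The B cell pair gave 3 higher (0.0022%) and 2 lower (0.00146%) calls among 136620 tiles. The excess of lower calls rests on the class correction: with a null odds ratio of 1, 12 tiles were higher (0.0118%) and 4 lower (0.00394%). With the wild-type loss applied to the Sca1-BCL6Δ reads as 1 rate for all tiles, 1 was higher and 3 were lower, and with classes set by the HSPC libraries themselves 5 and 54. The 5 higher and 4 lower tiles called both with and without the correction are therefore described first.

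Among the higher tiles called both ways, chromosome 4, 148326001 to 148327000, held the most CpGs. Its level was 88.0% in Sca1-BCL6Δ HSPCs (132 of 150 counts over 33 CpGs) and 41.4% in wild-type HSPCs (109 of 263). The 95% Wilson intervals of the thinned counts were 72.2 to 93.3% and 34.0 to 54.2%, and the difference was 46.6 points (exact conditional test, adjusted p = 0.00312). Its class, 30 or more CpGs at 20 to under 80% in B cells, held only 60 tiles. Their tested differences had an SD of 14.8 points, against 9.91 from counting, and the test includes counting error only. The tile of chromosome 6 from 52125001, given below, is of the same class. The call was kept in 9 of 12 other settings and lost with no upper limit of reads per CpG (exact test, adjusted p = 0.0912), with the single loss rate (0.399) and with both libraries brought to equal coverage (0.173). Of the 33 CpGs, 24 were higher and 1 lower in Sca1-BCL6Δ HSPCs. The B cell libraries had the opposite order, with 20.5% of 195 counts in Sca1-BCL6Δ and 60.3% of 453 in wild-type B cells, and 29 of the CpGs were lower in Sca1-BCL6Δ B cells. The genotype difference itself differed between HSPCs and B cells here, by 86.3 points of uncorrected level (exact test, adjusted p = 0.0115). The test set the odds ratios of both pairs against the ratio of their class odds ratios. Of 90587 tiles with 10 or more counts at CpGs shared by the 4 libraries, 2 passed that test (0.00221%), and an unadjusted p under 0.05 was reached by 2.63%. The other is described among the lower tiles.

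The tile holds the start site of Gm13205, a long non-coding RNA gene model on the minus strand. No mm9 annotation was used here: the start site was placed at 148326431 by matching the spacing of CGs in the promoter sequence to the CpGs of the files, with 9 CpGs matched. The 250 bases before that start are printed because they hold part of the CpGs that carry the difference. They were taken from the RefSeq promoter table (GRCm38.p6), run 5′ to 3′ on the minus strand and match mm9 chr4:148326432-148326681. Capitals mark the 8 of its 32 CGs that had reads in both HSPC libraries.

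Gm13205: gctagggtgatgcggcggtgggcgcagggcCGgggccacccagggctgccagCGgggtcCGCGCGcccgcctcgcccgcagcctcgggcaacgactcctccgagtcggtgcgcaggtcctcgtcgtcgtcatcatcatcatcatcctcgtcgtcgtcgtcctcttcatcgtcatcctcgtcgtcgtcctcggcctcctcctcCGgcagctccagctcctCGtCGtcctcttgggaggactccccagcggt

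Over these 8 CpGs every one of the 28 Sca1-BCL6Δ HSPC counts was methylated, against 75.8% of 33 in wild-type HSPCs. The B cell libraries had 11.1% of 27 (Sca1-BCL6Δ) and 71.3% of 94 (wild-type). The 5 upstream-most CpGs did not differ between the HSPC libraries, at 100% in both with 2 to 3 reads each, and the 3 nearest to the start had 100% in Sca1-BCL6Δ against 57.1 to 71.4% in wild-type HSPCs. The widest gap lay past the start site. The 5 CpGs from 148326357 to 148326383 were at 100% in Sca1-BCL6Δ HSPCs, with 3 to 5 reads each, and at 0 of 6 reads each in wild-type HSPCs. Wild-type B cells had 75 to 100% at these CpGs. They lie within 50 bp of one another and can share reads, so they are not separate observations. The same holds within the 5 upstream-most CpGs and within the 3 nearest to the start.

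**Figure D4:**
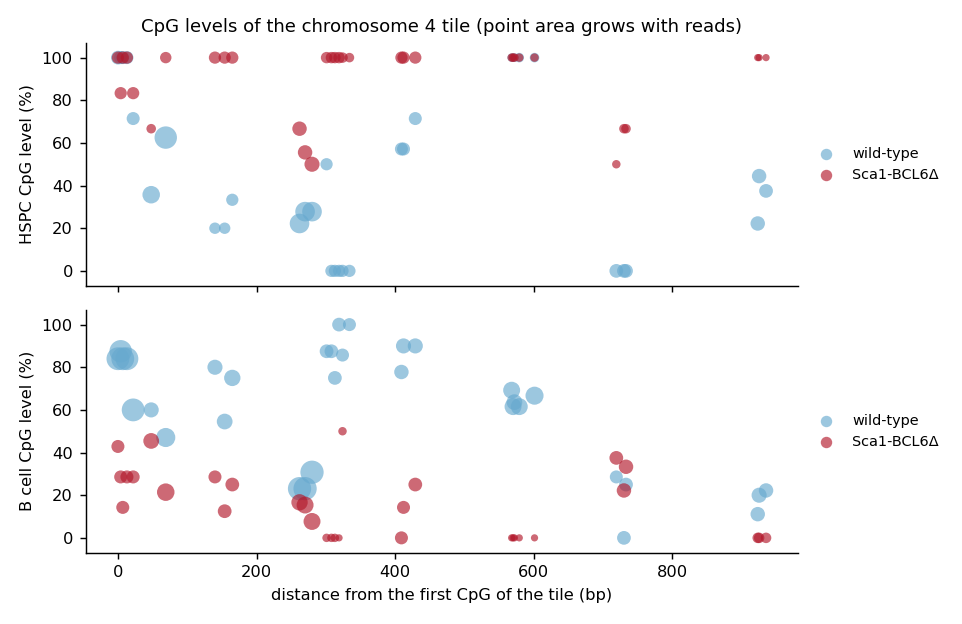
Methylation level of each CpG (y axis, %) in the tile of chromosome 4 by its distance from the first CpG (x axis, bp), in HSPC libraries (top) and B cell libraries (bottom); point area grows with the number of reads. Sca1-BCL6Δ lies above wild-type at 24 of 33 CpGs in HSPCs and below it at 29 in B cells. Neighbouring CpGs can share reads.

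The other 4 higher tiles called both ways held 3 to 5 CpGs. At chromosome 8, 15042001 to 15043000, the level was 80.8% of 52 counts in Sca1-BCL6Δ against 37.8% of 82 in wild-type HSPCs, a difference of 43.0 (exact test, adjusted p = 0.0311). B cells had 87.0% and 72.3% there, so wild-type HSPCs were the lowest of the 4 libraries. Chromosome 2, 60465001 to 60466000, had 68.6% of 35 counts against 30.3% of 33 (difference 38.3, exact test, adjusted p = 0.0040) and 71.4% and 64.3% in Sca1-BCL6Δ and wild-type B cells. Only 1 of its 3 CpGs carried this difference, at 82.4% against 0 of 17 reads; the others had 66.7% against 62.5% and 44.4% against 62.5%. Its call was lost with all CpGs tested (exact test, adjusted p = 0.154) and on whole reads (exact test, adjusted p = 0.265). At chromosome 13, 51844001 to 51845000, the HSPC levels were 90% of 20 counts and 18.5% of 27 (difference 71.5, exact test, adjusted p = 0.0306), with 75% and 43.1% in B cells. Chromosome 8, 72663001 to 72664000, differed from these: its level was 73.3% of 15 counts in Sca1-BCL6Δ HSPCs and 0 of 42 in wild-type HSPCs (difference 73.3, exact test, adjusted p = 0.00357). The thinned count of 0 of 34 allows a level of up to 8.82%. B cells had 14.3% of 7 and 14.6% of 41 counts at that tile, so Sca1-BCL6Δ HSPCs were the high library. Of 11 or 12 other settings, 8 or 9 kept the call of each of these 4 tiles, and the loss rate lost all 4.

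Of the 6 higher tiles called only with the correction, chromosome 6, 52125001 to 52126000, resembled the tile of chromosome 4 in the order of the libraries. It held 30 CpGs, with 77.9% of 113 counts in Sca1-BCL6Δ against 44.3% of 221 in wild-type HSPCs (difference 33.5, exact test, adjusted p = 0.0462), and 42.5% and 74.9% in Sca1-BCL6Δ and wild-type B cells. The nearest matched start site was that of Hoxa5, a homeobox transcription factor gene, at 28.6 kb. At chromosome 11, 119060001 to 119061000, Sca1-BCL6Δ was again the higher library in HSPCs, at 51.3% against 17.9% (difference 33.4, exact test, adjusted p = 0.0477), and the lower one in B cells, at 38.9% against 65.9%, but here wild-type B cells were the highest and wild-type HSPCs the lowest library. At neither tile did the difference between cell types pass the test (exact test against the class odds ratios, adjusted p = 0.410 and 0.255). The call at chromosome 6 was kept in 5 of 12 other settings and the one at chromosome 11, 119060001, in 3 of 12. Limited to CpGs with under 25 reads, the difference of the latter was 19.5 points. At chromosome 11, 94452001 to 94453000, Sca1-BCL6Δ was the higher library in both cell types: 90% of 10 against 10% of 30 counts in HSPCs (adjusted p = 0.0421, exact test) and 8 of 8 counts against 2.86% of 35 in B cells. Its call was kept in 6 of 11 other settings. The remaining 3 were at chromosome 14, 31389001 (100% against 40.7%), chromosome 10, 79767001 (24.4% against 4.48%), and chromosome 17, 28278001 (23.3% of 210 against 4.88% of 328 counts). The calls at chromosomes 14 and 10 were kept in 7 and 5 of 12 other settings. The tile of chromosome 17 lies outside the rule for named tiles and was added because it alone was left. It lay 0.254 kb from the matched start site of Scube3, which encodes a secreted glycoprotein.

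The 4 lower tiles called both ways were low in Sca1-BCL6Δ HSPCs and high or intermediate in wild-type HSPCs. Chromosome 6, 39726001 to 39727000, had 36.4% of 22 counts in Sca1-BCL6Δ against 91.2% of 57 in wild-type HSPCs (difference -54.9, exact test, adjusted p = 4.28e-08), with 96.8% and 94.5% in Sca1-BCL6Δ and wild-type B cells. At chromosome 5, 144236001 to 144237000, the HSPC levels were 27.8% of 18 and 93.1% of 72 (difference -65.3, exact test, adjusted p = 8.05e-06), and B cells had 100% and 98.7%. Sca1-BCL6Δ HSPCs were thus the single low library at both. Chromosome 14, 54853001 to 54854000, had 2.78% of 36 against 75% of 16 counts (difference -72.2, exact test, adjusted p = 9.56e-05), but B cells had only 4 and 5 counts there. At this tile 34 of the 36 Sca1-BCL6Δ counts came from 1 of 3 CpGs. Its difference was -36.6 when CpGs with reads in either library were used (exact test, adjusted p = 0.0472), and the call was lost at equal coverage (exact test, adjusted p = 0.477). Chromosome 2, 32237001 to 32238000, had another pattern over its 16 CpGs. Its level was 2.33% of 86 counts in Sca1-BCL6Δ HSPCs, 9.57% of 94 and 17.7% of 248 in Sca1-BCL6Δ and wild-type B cells, and 45.3% of 117 in wild-type HSPCs (HSPC difference -43.0, exact test, adjusted p = 0.0392). Wild-type HSPCs were the high library at this tile. Of these 4, all but the tile of chromosome 14 were picked once their values had been seen.

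A lower tile called only with the correction was the other one whose genotype difference was not the same in HSPCs and B cells, and it was singled out for that. Chromosome 19, 29018001 to 29019000, held 5 CpGs and had 6.45% of 31 counts in Sca1-BCL6Δ against 64.1% of 39 in wild-type HSPCs (difference -57.7, exact test, adjusted p = 0.0226). The B cell libraries had the opposite order, with 55.7% of 61 counts in Sca1-BCL6Δ and 20% of 60 in wild-type B cells. The HSPC difference less the B cell difference was -93.4 points (exact test against the class odds ratios, adjusted p = 0.00898), in the direction opposite to that of chromosome 4. A z approximation, run before the exact test replaced it, did not call this tile.

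The 160 lower tiles are described here by the values that called them and by their position. Their median level was 39.1% in Sca1-BCL6Δ against 85.7% in wild-type HSPCs, and 134 of them had a level of 20 to under 80% in Sca1-BCL6Δ HSPCs. They lay on all 19 autosomes, with 0.0624 to 0.237% of the tiles of a chromosome, and only 2 lay within 5 kb of the one before. Sparse tiles made up 94.4% of them, against 80.3% of all tiles, and 93.1% were in the classes of 80% or more in B cells, against 61.9%. The null odds ratio was set by these same classes and is farthest from 1 in them, so these shares are a description. In the B cell libraries, with 10 or more counts in each at 144 of the tiles, the median levels were 95.5% in both genotypes. There Sca1-BCL6Δ was higher at 62 tiles, lower at 62 and equal at 20. Over all tiles with such counts it was lower at 44.8%, against 43.1% of the lower tiles. The same B cell libraries set the classes of these tiles, and levels near 95.5% leave little room for a difference. The even split is therefore a description too.

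The lower tiles rested on few reads, as most sparse tiles did. The median was 15.5 reads at 2 read positions in Sca1-BCL6Δ HSPCs, against 11 reads at 2 positions over all sparse tiles of 80% or more in B cells. Of the 160 tiles, 29 (18.1%) rested on 1 tested CpG, against 30.7% of those sparse tiles. With the test run on whole reads instead of CpG counts, 184 tiles were lower, among them 131 of the 160, and 10 higher, among them 6 of the 11. The median level of tiles within 5 kb that were not themselves called, in the classes of 80% or more, was 95.8% in Sca1-BCL6Δ against 82.8% in wild-type HSPCs. The median difference of these 141 neighbours was 10.95, against 12.5 over all tiles of those classes, and 9.22% of them lay 20 points or more under their class median, against 6.09%. Among the 25 neighbours of 20 to under 80%, 28% lay that far under their class median, against 15.9% of all such tiles. Of the 26 neighbours of the higher tiles, 23.1% lay 20 points or more above their class median, against 9.94% of all tiles. These shares carry no test.

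The 10 lower tiles with the largest corrected difference had levels of 0 to 26.7% in Sca1-BCL6Δ against 75 to 100% in wild-type HSPCs, over 2 to 6 CpGs. Chromosome 13, 101358001 to 101359000, had 7.14% of 14 against 95.6% of 90 counts, a difference of -88.4 (exact test, adjusted p = 0.00635). Only 4 Sca1-BCL6Δ counts were left after thinning there. Chromosome 2, 71338001 to 71339000, had 0 of 12 counts in Sca1-BCL6Δ against 88.2% of 17 in wild-type HSPCs (difference -88.2, adjusted p = 0.00689, exact test). After thinning 0 of 6 remained, which allows a level of up to 50%. Chromosome 8, 108215001 to 108216000, had 9.52% of 21 against 93.3% of 30 counts (difference -83.8, adjusted p = 0.00287, exact test), with a Wilson interval of 2.57 to 51.3% for Sca1-BCL6Δ. Chromosome 11, 31750001 to 31751000, had 24.0% of 25 against 22 of 22 counts (difference -76.0, adjusted p = 9.56e-05, exact test). At the 6 of these 10 tiles with 10 or more counts in each B cell library, B cell levels were 79.2 to 100%.

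**Figure D5:**
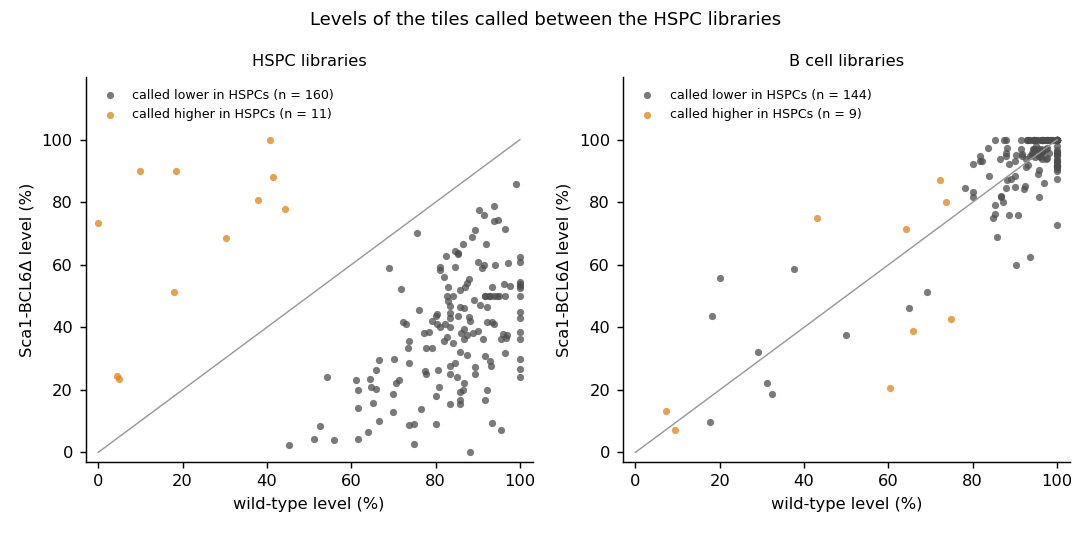
Level of each called tile in wild-type (x axis, %) and Sca1-BCL6Δ libraries (y axis, %), in HSPCs (left, 160 lower and 11 higher) and in B cells (right, tiles with 10 or more counts in each B cell library, 144 and 9). The line marks equal levels; the lower tiles lie under it in HSPCs and on both sides of it near 95% in B cells.

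The correction also removed calls. Of the 12 higher tiles called without it, 7 were lost with it. These 7 had 78.9 to 100% in Sca1-BCL6Δ HSPCs and 72.5 to 100% in the B cell libraries, but 16.7 to 30.8% in wild-type HSPCs. The one with most CpGs was chromosome 7, 25162001 to 25163000, with 23 CpGs, 78.9% of 166 counts in Sca1-BCL6Δ against 30.1% of 296 in wild-type HSPCs (difference 48.8, exact test with a null odds ratio of 1, adjusted p = 0.0180). Its B cell levels were 72.5% and 85.4%. At these tiles wild-type HSPCs were the single low library. The call required a lower level there than in Sca1-BCL6Δ HSPCs, and the correction moves the null odds ratio most in classes methylated in B cells. The order of the libraries and its margin are therefore a description.

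Promoters were examined at start sites placed by the same CG spacing match. Of 31396 autosomal promoter sequences in the RefSeq table, 6348 matched at 1 place, and 56 did so when tried on the next chromosome number. Kept tiles with a matched start site numbered 5187, and they are CpG-rich by the way they were found. Their median level was 7.63% in Sca1-BCL6Δ against 9.64% in wild-type HSPCs, and the median difference was -1.86 points. Among tiles of 30 or more CpGs and under 10% in B cells, those with and without a start site had medians of -1.78 and -1.77. At 10 to under 20% these were -2.84 and -1.65. The sign differed in sparse tiles of 20 to under 80%, with -1.77 over 21 start-site tiles against 5.75 over 14128 others, and at 10 to 29 CpGs of that level the medians were 0.04 and 1.78. Of the start-site tiles 1 was called, the one of Gm13205. Methylation at promoters of CpG-rich genes was thus low in both HSPC libraries, and no protein-coding start site among those matched passed the test.

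Of 30 regulators of stem and progenitor cells, 8 had a matched start site in a kept tile, and none was called. Their median difference was 1.81 points, beside -1.86 over all start-site tiles. Of the 8, 5 were higher and 3 lower in Sca1-BCL6Δ, with differences from -14.0 to 21.3 points. The start-site tile of Runx1 (chromosome 16, from 92697001), a transcription factor needed for the first blood stem cells, had 16.3% of 129 counts in Sca1-BCL6Δ against 13.0% of 478 in wild-type HSPCs. That of Tal1 (chromosome 4, from 114730001), a helix-loop-helix factor of early blood formation, had 23.9% of 46 against 2.63% of 38 (exact test, adjusted p = 0.716). Myb (chromosome 10, from 20880001), a factor of progenitor growth, had 4.67% of 214 against 18.7% of 198 (exact test, adjusted p = 0.465), and wild-type B cells had 16.01%. All but 1 of the 8 were under 20% in both libraries. Gata2 had 9.71% and 6.67%, Ikzf1 8.18% and 5.70%, and Bmi1 6.59% and 9.83%, in Sca1-BCL6Δ and wild-type HSPCs.

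The enzymes and cofactors that write, copy and remove methylation had low start-site levels in both genotypes. Of 20 genes 13 were matched, 5 with a higher and 8 with a lower level in Sca1-BCL6Δ, and none was called (median difference -0.598). Dnmt1 (chromosome 9, from 20757001), the maintenance enzyme, had 1.18% of 85 counts in Sca1-BCL6Δ against 18.3% of 164 in wild-type HSPCs (exact test, adjusted p = 1). Tet2 had 4.81% of 187 against 17.3% of 289, and Mbd4, a repair glycosylase, 1.85% of 162 against 18.9% of 190, with adjusted p = 1 in the same exact test. Dnmt3a had 6.54% and 5.14% and Dnmt3b 5.57% and 6.09%. Every one of the 13 was under 20% in both libraries.

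Bcl6 itself had 9.21% of 239 counts in Sca1-BCL6Δ against 5.79% of 259 in wild-type HSPCs over 31 CpGs of its start-site tile (chromosome 16, from 23988001). The transgene carries a cDNA and another promoter, so these CpGs of the endogenous promoter say nothing of it. Of 23 genes known as BCL6 targets, 6 were matched, with levels under 20% in both libraries and a median difference of -2.35, and none was called. Cdkn2a, a tumour suppressor locus with several start sites, had 16.4% of 225 and 5.42% of 203 counts (adjusted p = 1, exact test), and Bcl2, which blocks cell death, 5.26% and 7.03%. Of the B lineage list 4 of 28 genes were matched, of the myeloid list 2 of 21 and of the T lineage list 3 of 20, with none called and median differences of -1.79, -1.27 and 0.143. Among these, Irf8 had the highest levels, at 41.2% of 17 and 43.8% of 16 counts, and Tcf3, Cebpb and Tcf7 lay between 3.10 and 12.8% in both HSPC libraries.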

How the data were processed

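Per the labels, DNA of HSPCs and B cells was pooled from 6 to 9 mice per condition, cut, converted and amplified over 18 PCR cycles, which gave 1 library per condition. Per the submitters' processing notes the build was mm9; no version of the aligner is named there. The deposited CpG tables gave methylated and total read counts per CpG as a pair, and a score that per the file headers is the mean methylation. The deposited read tables gave the percent of methylated CpGs and the count of CpGs of each read. Only counts entered the tests; the read tables served the read patterns, the count of read positions and the alternative on whole reads.

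Levels, classes and tests were computed in Python 3.11.15 with numpy 2.4.6, pandas 2.3.3 and scipy 1.17.1. CpGs of a tile were thinned to more than 50 bp apart, keeping the deepest, and tested two-sided with Fisher's noncentral hypergeometric distribution. The null odds ratio was the Mantel-Haenszel odds ratio of the class, and Benjamini-Hochberg adjustment ran over all tiles. Levels count all CpGs of a tile, whereas Wilson intervals and the limits from a count of 0 (3 counts of the total) use the thinned counts. The test was checked on simulated data with independently drawn reads. That check does not cover spread beyond counting error, PCR duplicates or reads shared between CpGs. Named tiles are, per direction, the 10 called ones with the largest corrected difference among those with at least 2 CpGs. The difference between cell types was tested exactly on the odds ratios of both pairs, given all margins, against the ratio of their class odds ratios; it replaced a z approximation that was run first.

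The tile rule and the lists were chosen with earlier results of these data known. That CpGs need reads in both libraries was settled after a table of the other reading had been seen. Promoter matching, gene lists, neighbouring tiles, read patterns, read positions, the test between cell types and the relation to covered CpGs were added after the files were seen, and the gene lists after the calls. A promoter was placed where at least 8 covered CpGs of its 300-bp window all fell on its CGs, with a lead of 3 over any second place. The RefSeq table used here held no start sites on chromosome 18. Per-gene annotation of mm9 was not used here, so whether a tile is exonic or intronic is not stated.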

Additional observations from a re-analysis of the deposited data

Results flagged for a closer look

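Both tiles given here had a genotype difference that was not the same in HSPCs and B cells, by an exact test on read counts over 90587 tiles. The test set the odds ratios of both pairs against the ratio of their class odds ratios, whereas the points below are uncorrected. At chromosome 4, 148326001 to 148327000, Sca1-BCL6Δ minus wild-type was 46.6 points in HSPCs and -39.8 points in B cells, which differ by 86.3 points (exact test, adjusted p = 0.0115). At chromosome 19, 29018001 to 29019000, it was -57.7 points in HSPCs and 35.7 points in B cells, and the first less the second is -93.4 points (exact test, adjusted p = 0.00898). A z approximation that was run first called the tile of chromosome 4 and not that of chromosome 19. Each level comes from 1 pooled library.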

How the results depend on the processing

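Counts of called tiles depended on the processing more than class medians did. The 160 lower calls became 4 without the correction, 3 with a single loss rate (wild-type over Sca1-BCL6Δ, 0.872), 54 with classes set by the HSPC libraries, 56 at equal coverage, 89 at 20 or more counts per tile and 1111 when all CpGs of a tile were tested, in which neighbours share reads. The 11 higher calls became 1 with the loss rate, 5 with HSPC classes, 3 at equal coverage, 6 at 5 or more counts and 540 with all CpGs. Of the 160 lower and 11 higher tiles, 41 and 2 kept their call with HSPC classes, and none was called in the opposite direction in any of the 13 settings that use the same tiles. Other settings (25 reads per CpG, no upper limit, whole reads, shifted or 2 kb tiles, 30 points, and 2 added after the data were seen: CpGs with reads in either library, and tiles with 2 or more CpGs after thinning) left both counts within 1.5 times, though the test on whole reads kept 6 of the 11 higher tiles. Of 108 class medians under 9 settings, 102 moved by less than the SD over autosomes and none reversed; within that SD, 2 still moved by over 1.5 times (10 to 29 CpGs at 20 to under 80%, 0.211 with shifted tiles, and 30 or more CpGs at 10 to under 20%, -0.99 with the mean of CpG levels). In sparse tiles of 20 to under 80% the median became 3.57 at 20 or more counts and 7.27 at 5 or more; at 95 to 100% it became 10.6 at 20 or more counts and 10.5 at equal coverage; and under 10% it became 0.00 at equal coverage. In tiles of 10 to 29 CpGs and 95 to 100% it became 9.29 with 2 kb tiles. None of the 20 named tiles changed sign; 14 lost their call without the correction and 19 with the loss rate. Of the 2 tiles whose genotype difference differed between cell types, 1, that of chromosome 4, was called by a z approximation that was run first. The cause was not tested. No paired analysis was possible because each condition had 1 library. Tiles with few counts limit what can be called, since a sparse tile rested on a median of 17 and 25 counts.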

Other observations

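The following start-site tiles were picked from those with large differences after their values were seen and not strictly by rank, and neither passed the test. The tile shared by the start sites of Sass6, a centriole assembly gene, and Trmt13, a tRNA methyltransferase gene, had 4.55% of 44 counts in Sca1-BCL6Δ and 59.3% of 59 in wild-type HSPCs, with 18.8% and 8.25% in Sca1-BCL6Δ and wild-type B cells (exact test, adjusted p = 0.189). Setdb1, a histone H3 lysine methyltransferase gene, had 36.7% of 30 and 5.06% of 79 counts, with 0 of 13 and 3.06% of 98 in B cells (exact test, adjusted p = 0.860). The start-site tile of Sprn differed more than that of Setdb1, at 42.3% of 26 counts in Sca1-BCL6Δ against 0 of 27 in wild-type HSPCs, and was not called either.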
